A study of Mus musculus with 20 samples.

Results

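The genes described here are 10 genes that bring glucose into the cell and control its breakdown to lactate: Slc2a1, Hk1, Hk2, Hk3, Pfkl, Pfkp, Pfkfb3, Pfkfb4, Pkm and Ldha. They were taken by symbol from the 24342 mouse genes of the count table, each represented by the RefSeq transcript with the highest total count. All 10 were among the 12013 genes that passed the filter on low counts. The cells were macrophages grown from bone marrow of C57BL/6 mice with L929-conditioned medium. During this differentiation they received 1 µM SGC0946, an inhibitor of the histone H3 lysine methyltransferase DOT1L, or its solvent DMSO. Cells of each arm were left unstimulated (4 libraries per arm), received the Toll-like receptor ligand LPS at 10 ng/mL for 3 h (3 libraries per arm), or received the LXR agonist GW3965 at 2 µM for 17 h (3 libraries per arm), which gave 20 poly(A) RNA libraries in 6 groups. Because the inhibitor was given while the cells differentiated, an effect on mature macrophages cannot be told apart from an effect on how the cells matured. No library of cells without solvent was used here, and all groups share the conditioned medium.

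Glucose enters macrophages through facilitative transporters, of which SLC2A1 (GLUT1) is the best known in activated cells. Hexokinases trap it as glucose 6-phosphate, phosphofructokinase commits it to glycolysis, and pyruvate kinase and lactate dehydrogenase finish the path to lactate. Enzymes of the PFKFB family set the amount of fructose 2,6-bisphosphate, the strongest activator of phosphofructokinase. Macrophages exposed to LPS are known for increased glucose uptake and lactate release, and the hypoxia-inducible factor HIF-1 is a known activator of many of these genes.

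Because the 10 genes respond to LPS in different directions, the bases just before their start sites are shown for the genes the results turn on: Slc2a1, Hk2 and Pfkfb3, which rose, Ldha, which rose little (and fell with library totals alone), and Pfkfb4, which fell. The sequences are the 250 bases before an annotated start in RefSeq on GRCm38.p6, written 5′ to 3′ on the strand of the gene. Capitals mark CACGTG, the E-box, ACGTG, the core of the hypoxia response element, and GCGTG, a variant of that core, on either strand.
Slc2a1, chr4:119108495-119108744, plus strand: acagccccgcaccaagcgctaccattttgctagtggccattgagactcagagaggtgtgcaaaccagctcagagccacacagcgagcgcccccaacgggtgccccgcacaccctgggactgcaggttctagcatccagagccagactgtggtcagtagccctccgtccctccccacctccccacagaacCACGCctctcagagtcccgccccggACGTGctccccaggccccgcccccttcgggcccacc
Hk2, chr6:82774455-82774704, minus strand: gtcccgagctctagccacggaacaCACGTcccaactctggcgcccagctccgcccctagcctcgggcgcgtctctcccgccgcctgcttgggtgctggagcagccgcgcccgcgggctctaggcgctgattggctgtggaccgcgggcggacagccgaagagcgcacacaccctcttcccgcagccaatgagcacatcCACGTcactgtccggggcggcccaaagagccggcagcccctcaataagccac
Pfkfb3, chr2:11502091-11502340, minus strand: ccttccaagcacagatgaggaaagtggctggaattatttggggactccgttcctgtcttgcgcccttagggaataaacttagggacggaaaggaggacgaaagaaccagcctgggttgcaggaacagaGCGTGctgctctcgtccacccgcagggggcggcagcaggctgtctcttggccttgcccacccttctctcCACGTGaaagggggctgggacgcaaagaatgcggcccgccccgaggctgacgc
Ldha, chr7:46845554-46845803, plus strand: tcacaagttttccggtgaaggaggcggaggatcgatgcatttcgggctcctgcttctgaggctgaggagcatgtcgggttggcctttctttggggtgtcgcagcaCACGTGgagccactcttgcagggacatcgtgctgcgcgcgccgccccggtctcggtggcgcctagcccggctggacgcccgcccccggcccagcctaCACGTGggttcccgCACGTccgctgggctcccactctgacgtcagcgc
Pfkfb4, chr9:108991652-108991901, plus strand: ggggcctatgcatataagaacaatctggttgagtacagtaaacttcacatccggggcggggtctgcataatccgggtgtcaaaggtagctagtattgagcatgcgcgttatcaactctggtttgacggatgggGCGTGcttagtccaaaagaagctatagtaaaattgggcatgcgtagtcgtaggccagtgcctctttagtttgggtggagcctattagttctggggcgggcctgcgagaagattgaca
The Hk2 window held 2 copies of ACGTG, one of them beginning 52 bases before the start. The Slc2a1 window held 1 copy of ACGTG and 1 of GCGTG. In the Ldha window there were 2 copies of CACGTG, and ACGTG was found at 5 places, 4 of which lie inside these 2 palindromes. Pfkfb3 had another start, at chr2:11553930-11554179 on the minus strand, with 1 copy of ACGTG. The Pfkfb4 window held GCGTG once and no ACGTG. Another Ldha start, at chr7:46846832-46847081 on the plus strand, had 1 copy of GCGTG and no ACGTG. Among the genes not shown, Hk1 (in both its windows) and Pfkp held no ACGTG, although they rose with LPS. Pfkl held none either. Hk3, which rose, held 1 copy, and Pkm held 1 copy at chr9:59656977-59657226 and none at its other start. Over all 10 genes there were 14 such windows, of which 7 held ACGTG and 7 held GCGTG. Among 32851 windows of the same length in the genome, ACGTG was found in 16.6%, GCGTG in 28.2% and CACGTG in 6.02%. Of the 14 windows 9 held at least 60% G and C, and among the 9178 such windows in the genome the shares were 23.03%, 53.9% and 9.32%. The other 5, with the Pfkfb4 window among them, held 47.2 to 59.2%, and 3 of these lay under the median of all windows (52.4%). None of the 14 windows held the NF-kB motif (in 1.41% of all windows and 1.35% of those with at least 60% G and C), TGANTCA (the AP-1 motif, 6.75% and 2.85%) or TATAAA (12.4% and 2.58%), each read on both strands. A match is a run of letters and not a measured binding site.

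The libraries held 8.17 to 13.33 M counts on the transcripts used (median 10.4 M). Libraries of a group differed by more than sampling noise, with a chi-square per gene of 3.09 to 14.4, so none was counted as a repeat of another. In the SGC0946 arm replicate 2, and in unstimulated cells also replicate 4, stood apart from replicates 1 and 3 (chi-square per gene in unstimulated cells 5.10 between replicates 2 and 4, 6.06 between 1 and 3, and 7.82 to 10.9 across). Results that rest on them are therefore given without replicates 2 and 4 as well, in a fit that drops these from every group. With fewer libraries that fit called 136 genes higher and 99 lower for SGC0946 in unstimulated cells, against 546 and 502 with all libraries. A call lost in it therefore cannot be told apart from lost power. The replicate number is the number of the mouse, so libraries of the same number come from the same animal. The edgeR tests below do not use this pairing, except where the replicate block is named. In the labels 6 libraries, replicates 1 to 3 of DMSO and of DMSO+GW3965, have the word reanalyzed in their title. In the GW3965 comparison this word cannot be told apart from the inhibitor, and no LPS library carries it. All 9 macrophage markers were detected, with a summed level of 12265 to 20712 CPM (counts scaled to library size with TMM factors). In unstimulated cells neutrophil markers summed to 30.8 to 41.6 CPM in DMSO and 2.08 to 7.77 in SGC0946, with a lower mean in SGC0946 for each of the 8 genes. Of the 6 dendritic cell markers only Cd24a, which other cells express as well, had a mean above 1 CPM in unstimulated cells, at 33.0 ± 3.16 CPM in DMSO and 65.8 ± 8.78 in SGC0946 (SD, n = 4). The other 5, among them Flt3 and Zbtb46, summed to 0.675 to 1.91 CPM in DMSO and 0.782 to 2.38 in SGC0946. The erythroid genes Hba-a1 and Hbb-bs and the B cell gene Pax5 were at 0 in every library. Some other listed markers were not. In unstimulated cells Cd22 (B cell list) averaged 10.2 CPM in DMSO and 14.7 in SGC0946. Cd4 (T and NK cell list) averaged 9.11 and 15.2, and Kit (mast cell list) 10.3 and 16.4. The mean was higher in SGC0946 for 3 B cell genes and lower for 1. For the T and NK cell genes the counts were 3 and 3, and for the mast cell genes 3 and 0. After LPS Lck (T and NK cell list) averaged 19.9 and 37.6 CPM and Pdgfrb (stromal list) 6.77 and 8.07. Fewer cells of a type and less RNA per cell cannot be told apart in these bulk libraries.

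Read per transcript length (RPKM), the last enzymes of the pathway were the most abundant of the 10. In unstimulated DMSO cells Pkm stood at 278.7 ± 11.9 RPKM (SD, n = 4), Ldha at 237.6 ± 3.72 and Hk3 at 138.1 ± 3.73. Hk1 followed at 33.9 ± 1.47, Pfkp at 24.3 ± 1.17, Pfkl at 17.4 ± 0.273 and Pfkfb4 at 13.6 ± 0.902. Slc2a1 at 13.1 ± 1.22, Hk2 at 10.7 ± 0.507 and Pfkfb3 at 5.77 ± 0.257 were the lowest. After LPS in the DMSO arm, Pfkfb3 stood at 21.4 ± 0.382 RPKM (SD, n = 3) and Pfkfb4 at 3.38 ± 0.403, so the order of these genes turned around. RPKM divides by the library total, whereas the CPM values and tests that follow also use the TMM factor.

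LPS moved most of the 10 genes in both arms. In DMSO cells 7 rose and 1 fell at an edgeR adjusted p under 0.05, and in SGC0946 cells 7 rose and 2 fell. LPS changed most of the transcriptome, with 74.1% of all 12013 genes called in DMSO (35.4% higher and 38.7% lower) and 74.6% in SGC0946 (35.8% and 38.8%). The ranges of unstimulated and LPS libraries did not overlap for 10 of the 10 genes in DMSO (74.9% of all genes) and for 8 in SGC0946 (70.6%). The 10 genes were chosen with earlier results of these data known, so their median is given as a description only. It was a log2 change of 1.23 in DMSO and 0.94 in SGC0946, against -0.07 over all genes in each arm. These values depend on scaling: with library totals alone the median of all genes shifted by -0.73 in DMSO and -0.74 in SGC0946, and 6 genes rose and 4 fell in DMSO, and 5 rose and 4 fell in SGC0946. Slc2a1, Hk1, Hk2, Hk3, Pfkp and Pfkfb3 were higher and Pfkfb4 was lower under each scaling in DMSO cells. With DMSO replicate 4 as the only unstimulated control, which leaves out the libraries titled reanalyzed, the changes were between -1.22 and 2.57. Of these 8 were called, in a fit that takes the spread of this lone library from the other groups.

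**Figure D1:**
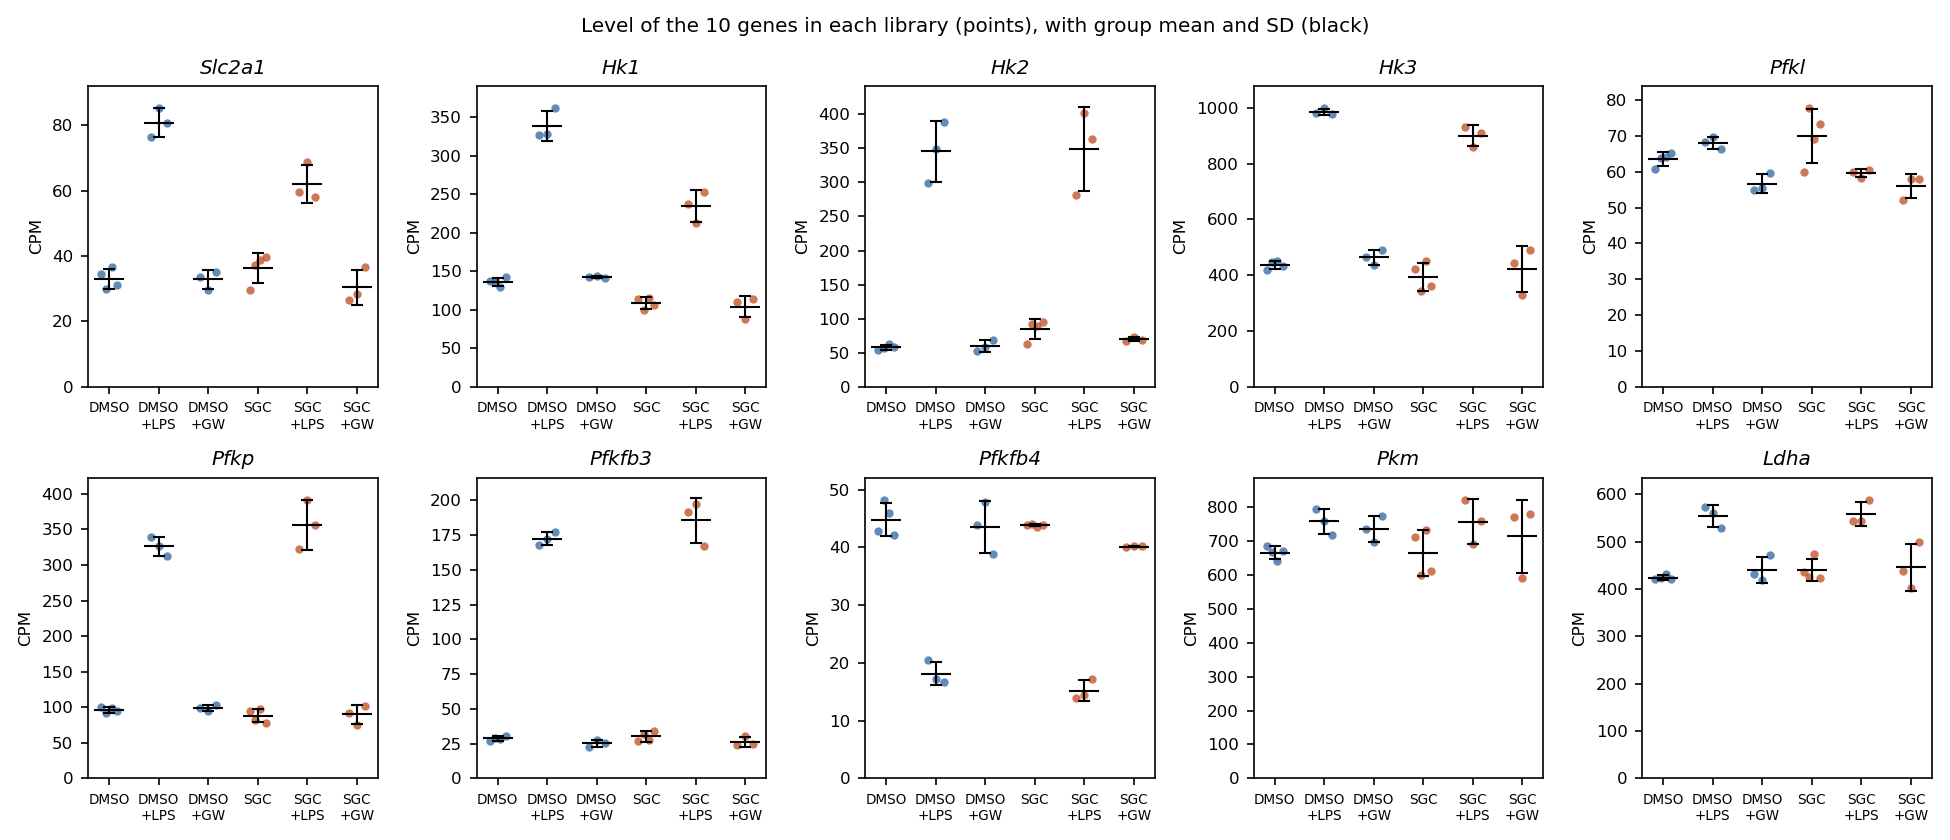
CPM of each of the 10 genes (vertical axis, from 0) in the 6 groups (horizontal axis, SGC for SGC0946 and GW for GW3965), with 1 point per library and the group mean with 1 SD in black. LPS libraries stand apart from the others for Slc2a1, Hk1, Hk2, Hk3, Pfkp, Pfkfb3 and Pfkfb4, and Hk1 is lower in SGC0946 than in DMSO in each condition.

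Slc2a1, the glucose transporter GLUT1 (chr4:119108745-119137330), stood at 34.4, 29.9, 36.7 and 31.1 CPM in DMSO replicates 1 to 4. After LPS it stood at 76.4, 85.2 and 80.8 CPM. In SGC0946 cells the values were 29.5, 37.2, 38.9 and 39.7 CPM without and 59.5, 68.8 and 58.1 CPM with LPS. The LPS libraries lay above the unstimulated ones in both arms, and the SGC0946+LPS libraries lay below the DMSO+LPS libraries. The log2 change with LPS was 1.29 ± 0.11 (SE) in DMSO (edgeR adjusted p = 3.84e-10) and 0.78 ± 0.11 in SGC0946 (adjusted p = 1.52e-06). The latter was 0.03 with library totals alone (edgeR adjusted p = 0.768). The response with the inhibitor differed from that without by -0.52 ± 0.15, which did not pass (edgeR adjusted p = 0.320). Within LPS cells SGC0946 differed from DMSO by -0.38 ± 0.12 (edgeR adjusted p = 0.0506), just outside the threshold. That difference passed with 6 other settings, among them DESeq2 (0.0304), limma-voom (0.0385), only the compared groups (0.0196) and the replicate block that pairs libraries of the same mouse (0.0264). It did not pass with a stricter filter (0.0645), library totals alone, summed transcripts, another transcript choice or without replicates 2 and 4.

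Hk1, the hexokinase of most tissues (chr10:62268855-62379920), stood at 137, 136, 129.8 and 143 CPM in DMSO and at 114, 100.0, 115 and 106 CPM in SGC0946. After LPS it stood at 326, 328 and 362 CPM in DMSO and at 238, 212 and 253 CPM in SGC0946. With GW3965 the values were 142, 144 and 142 CPM in DMSO and 109.9, 88.1 and 114 CPM in SGC0946. Each SGC0946 library lay below every DMSO library of its condition. In each of the 10 pairs of libraries from 1 mouse the SGC0946 library was lower, by -0.17 to -0.71 on the log2 scale. As these pairs come from 4 mice, they are not 10 independent replicates. The LPS response was 1.31 ± 0.07 in DMSO (edgeR adjusted p = 5.17e-13) and 1.11 ± 0.08 in SGC0946 (adjusted p = 1.38e-11), so Hk1 rose with LPS in both arms. Their difference of -0.20 did not pass (edgeR adjusted p = 0.752).

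Hk2, the hexokinase induced in growing and activated cells (chr6:82725025-82774454), stood at 54.4, 57.2, 62.9 and 58 CPM in DMSO and at 299.5, 349 and 389 CPM after LPS. In SGC0946 cells it stood at 63.4, 91.7, 88.5 and 95.8 CPM and, after LPS, at 282, 402 and 364 CPM. LPS libraries lay far above unstimulated ones in both arms, and the 2 LPS groups overlapped. The log2 change with LPS was 2.57 ± 0.13 in DMSO (5.95-fold, edgeR adjusted p = 4.86e-14) and 2.04 ± 0.13 in SGC0946 (4.11-fold, adjusted p = 2.1e-12). Their difference was -0.53 ± 0.18, which did not pass (edgeR adjusted p = 0.419).

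Hk3, a hexokinase of myeloid cells (chr13:55005985-55021475), rose with LPS by 1.17 ± 0.10 in DMSO (edgeR adjusted p = 6.08e-10) and by 1.19 ± 0.10 in SGC0946 (adjusted p = 4.87e-10). In DMSO the libraries stood at 418, 446, 451 and 432 CPM before and at 981, 998 and 976 CPM after LPS. It made up 75.6% ± 0.835 of the summed RPKM of the 3 hexokinases in DMSO and 67.9% ± 1.97 after LPS. Hk2 made up 5.86% ± 0.253 and 13.8% ± 1.44. A share of transcripts is not a share of enzyme activity.

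Pfkl and Pfkp, the liver type and platelet type subunits of phosphofructokinase, differed in their response. Pfkp (chr13:6579874-6649060) stood at 99.7, 91.2, 99.3 and 94.2 CPM in DMSO and at 339, 327 and 312 CPM after LPS. It rose by 1.76 ± 0.09 in DMSO (edgeR adjusted p = 3.18e-14) and by 2.02 ± 0.09 in SGC0946 (adjusted p = 3.15e-15). Pfkl (chr10:77986947-78009807) stood at 60.8, 63.7, 64.2 and 65.3 CPM and, after LPS, at 68.3, 69.8 and 66.4 CPM, a change of 0.10 ± 0.07 (edgeR adjusted p = 0.181). With library totals alone this change was negative. In SGC0946 cells Pfkl stood at 60, 77.7, 69.1 and 73.4 CPM and, after LPS, at 60, 58.3 and 60.5 CPM. It fell by 0.24 ± 0.07 there (edgeR adjusted p = 0.00468), although the groups overlapped and SGC0946 replicate 1 stood with the LPS libraries. Without replicates 2 and 4 this change was -0.10 (edgeR adjusted p = 0.325). Within a library the ratio of Pfkp to Pfkl in RPKM was 1.39 in DMSO and 4.41 after LPS, and 1.16 and 5.49 in SGC0946. The ratio does not depend on scaling between libraries. Its ranges did not overlap in either arm, and the exact permutation p of 0.0571 is the smallest that 4 libraries against 3 can give (0.2 after adjustment over 28 such tests).

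Pfkfb3 and Pfkfb4, which make and break down fructose 2,6-bisphosphate, moved in opposite directions. Pfkfb3 (chr2:11471430-11554071) stood at 26.5, 29.3, 28.6 and 30.3 CPM in DMSO and at 168, 172 and 177 CPM after LPS. In SGC0946 it stood at 26.7, 32.2, 27.4 and 34.3 CPM and, after LPS, at 192, 197 and 167 CPM. The log2 change was 2.59 ± 0.09 in DMSO (6.01-fold, edgeR adjusted p = 7.23e-17) and 2.62 ± 0.09 in SGC0946 (6.14-fold, adjusted p = 5.73e-17). Pfkfb4 (chr9:108988272-109032236) stood at 42.9, 48.3, 45.9 and 42.1 CPM in DMSO and at 20.5, 17.3 and 16.7 CPM after LPS. In SGC0946 it stood at 43.9, 44.1, 43.6 and 43.9 CPM and, after LPS, at 13.9, 14.4 and 17.3 CPM. It fell by 1.31 ± 0.09 in DMSO (edgeR adjusted p = 1.3e-11) and by 1.54 ± 0.09 in SGC0946 (adjusted p = 1.4e-12). The RPKM ratio of Pfkfb3 to Pfkfb4 was 0.426 in DMSO and 6.35 after LPS, a log2 difference of 3.90. In SGC0946 it was 0.455 and 8.14, a log2 difference of 4.16 (exact permutation p = 0.0571 in each arm, the smallest possible). Unstimulated libraries thus held more Pfkfb4 and LPS libraries more Pfkfb3.

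Pkm and Ldha, which encode pyruvate kinase and the lactate dehydrogenase subunit of glycolytic tissue, had small values whose sign depends on scaling. Ldha (chr7:46842274-46855627) stood at 420.2, 423, 433 and 420.5 CPM in DMSO and at 572, 561 and 528 CPM after LPS. It rose by 0.38 ± 0.07 in DMSO (edgeR adjusted p = 2.18e-05) and by 0.34 ± 0.07 in SGC0946 (adjusted p = 8.29e-05), but with library totals alone it fell by 0.34 and 0.40. Pkm (chr9:59656576-59679372) stood at 686, 667, 642 and 669.8 CPM and, after LPS, at 795, 761 and 719.7 CPM, a change of 0.19 ± 0.09 in each arm (edgeR adjusted p = 0.0628 in DMSO and 0.0604 in SGC0946). Pkm passed with DESeq2 (adjusted p = 0.0147 and 0.0197) and with the replicate block (0.0423 and 0.0386), and with library totals alone it changed by -0.54 and -0.55. Of the 2 Pkm rows the one that holds the M2 exon (chr9:59675568-59675734) exceeded the one that holds the M1 exon (chr9:59675029-59675195) in all 20 libraries, by 3.83 to 5.79% of its count. Both rows hold the reads of the shared exons. The first and last exons of the M2 row are also longer, at 282 against 77 and 648 against 462 bases. For these reasons the excess is no measure of the M1 to M2 ratio. Pkm shares 15.3% of its exon length with Gm49759 on the same strand. That may affect its counts, but a share of exon length is not a share of reads, and the effect was not measured.

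**Figure D2:**
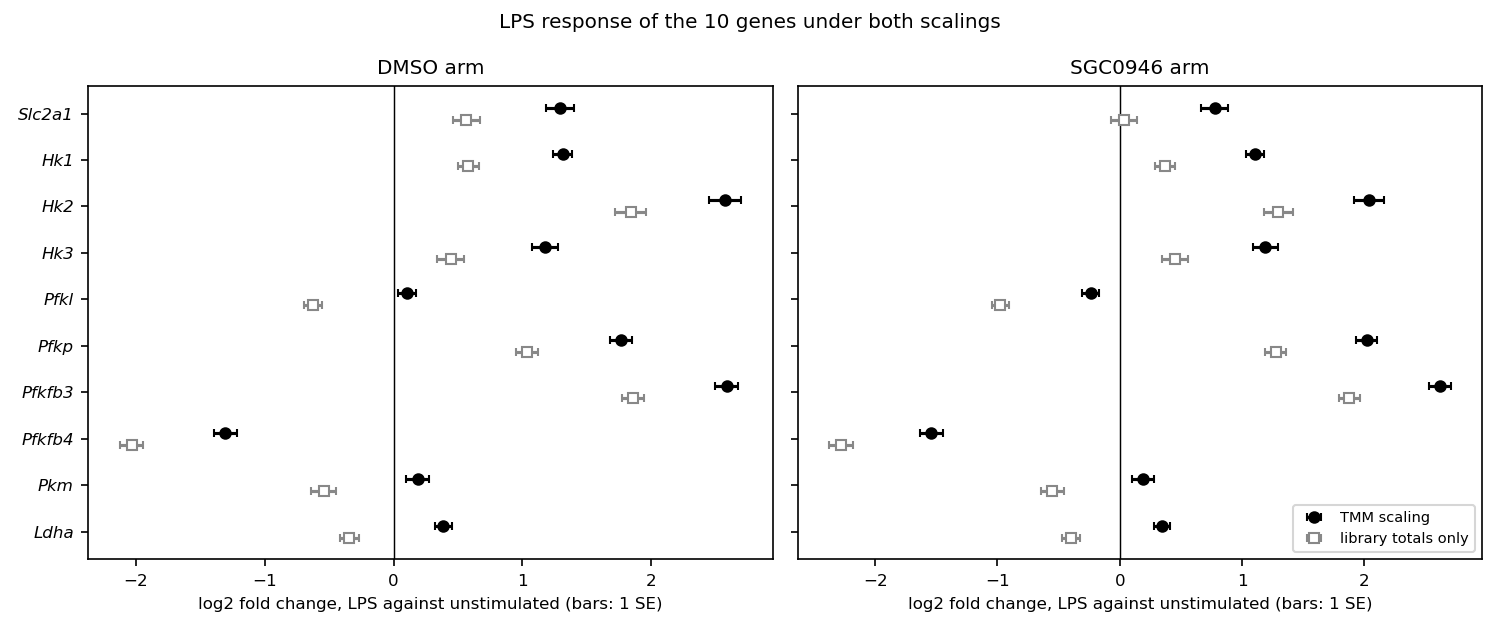
Log2 fold change with LPS (horizontal axis, bars 1 SE) of each gene in the DMSO arm (left) and the SGC0946 arm (right), with TMM scaling (black circles) and with library totals alone (open squares). Library totals shift every gene to the left, by about the shift of the median of all genes. Pkm and Ldha, and in DMSO also Pfkl, then lie below 0 in place of above it.

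SGC0946 changed few of these genes. In unstimulated cells Hk2 rose and Hk1 fell while 8 did not pass (8.72% of all genes were called, 4.55% higher and 4.18% lower), and the ranges of the same 2 genes did not overlap (16.1% of all genes). In LPS cells Hk1 fell and 9 did not pass (7.13% called, 3.86% higher and 3.26% lower). With GW3965 Hk1 fell and 9 did not pass (3.64% called, 2.24% higher and 1.4% lower), and the ranges of Hk1 alone did not overlap (20.3% of all genes). The share of members called was thus near the background, and the description that follows concerns Hk1 and Hk2 as single genes. The median log2 change of the 10 was 0.02, -0.07 and -0.08 in these 3 conditions.

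Hk1 fell by 0.33 ± 0.07 in unstimulated cells (edgeR adjusted p = 0.00538), by 0.53 ± 0.08 with LPS (adjusted p = 0.000269) and by 0.46 ± 0.08 with GW3965 (adjusted p = 0.00235). The LPS comparison involves no library titled reanalyzed. The call held there in each of the alternatives tried and when any 1 library was left out, and without SGC0946+LPS replicate 2 it was -0.47 (edgeR adjusted p = 0.00223). In unstimulated cells it was lost without replicates 2 and 4 (-0.21, edgeR adjusted p = 0.151). With DMSO replicate 4 as the only control the change was no smaller, at -0.40, but a lone library, assumed to vary like the other groups, gave an edgeR adjusted p of 0.103. The lower neutrophil marker sums given above went with the lower Hk1, and with LPS the neutrophil sums were 55.1 to 65.5 CPM in DMSO and 15.4 to 20.8 in SGC0946. Their part in the result was not tested.

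Hk2 rose with SGC0946 by 0.55 ± 0.12 in unstimulated cells (1.46-fold, edgeR adjusted p = 0.0066). SGC0946 replicate 1 stood at 63.4 CPM, near the highest DMSO library at 62.9, and the other 3 stood at 88.5 to 95.8. The call was lost without replicates 2 and 4 (0.38, edgeR adjusted p = 0.338). With DMSO replicate 4 as the only control, under the same assumption, the change was again 0.55 (edgeR adjusted p = 0.245). With LPS the difference was 0.02 ± 0.13 (95% interval -0.24 to 0.27, edgeR adjusted p = 0.972), and with GW3965 it was 0.23 ± 0.14 (-0.05 to 0.51, adjusted p = 0.445). The neutrophil marker sums were lower with the inhibitor here as well, and their part in the result was not tested.

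The ratio of Hk2 to Hk1 was higher with SGC0946 in each condition. In RPKM it was 0.295, 0.311, 0.360 and 0.301 in DMSO replicates 1 to 4 and 0.411, 0.680, 0.572 and 0.671 in SGC0946 replicates 1 to 4. The log2 difference was 0.86 (exact permutation p = 0.0286, the smallest for 4 against 4, 0.2 after adjustment over 28 tests). It was 0.54 with LPS, where the means were 0.754 and 1.10, and 0.70 with GW3965, where they were 0.308 and 0.502. For both the exact p of 0.1 is the smallest that 3 against 3 can give, and in all 3 conditions the ranges did not overlap. The adjusted values do not pass 0.05. These tests do not use the pairing by mouse. In each of the 10 pairs of libraries from 1 mouse the ratio was higher with SGC0946, by 0.32 to 1.16 on the log2 scale. The 10 pairs come from 4 mice, so they are not 10 independent replicates. The ratio of Hk3 to Hk1 was higher in each of the 10 pairs too, by 0.07 to 0.41. Its log2 difference was 0.17 in unstimulated cells, where the ranges overlapped (exact permutation p = 0.0857), and 0.40 with LPS and 0.31 with GW3965, where they did not (exact p = 0.1 each). Hk2 itself differed by 0.02 with LPS, so that there the higher ratio of Hk2 to Hk1 restates the lower Hk1.

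Under the edgeR settings used for the tests above, the other 8 genes did not pass in any comparison of SGC0946 with DMSO. Slc2a1 with LPS passed under some other settings, as given above. Pkm differed by 0.00, 0.00 and -0.04 in unstimulated, LPS and GW3965 cells, with 95% intervals within -0.23 to 0.19. For Ldha the differences were 0.05, 0.01 and 0.02, with intervals within -0.13 to 0.17. Pfkfb3 differed by 0.07, 0.11 and 0.08. Hk3 differed by -0.15, -0.13 and -0.14, with intervals that include 0, and its largest difference within a mouse was -0.40. With LPS 4 of the 10 genes had ranges that did not overlap between the arms (Slc2a1, Hk1, Hk3 and Pfkl), against 23.6% of all genes.

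**Figure D3:**
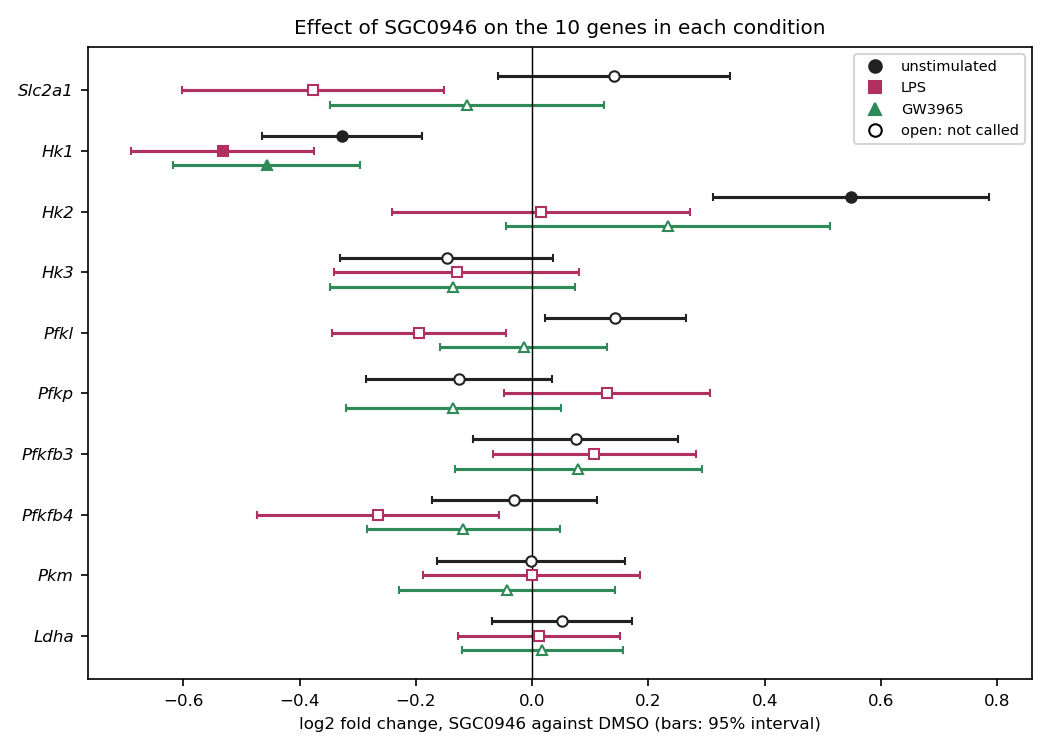
Log2 fold change of SGC0946 against DMSO (horizontal axis, bars 95% interval) of each gene in unstimulated (black circles), LPS (red squares) and GW3965 cells (green triangles), filled where the edgeR adjusted p is under 0.05. Hk1 lies below 0 in all 3 conditions, and Hk2 is filled in unstimulated cells only, which is no test of a difference between conditions.

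**Figure D4:**
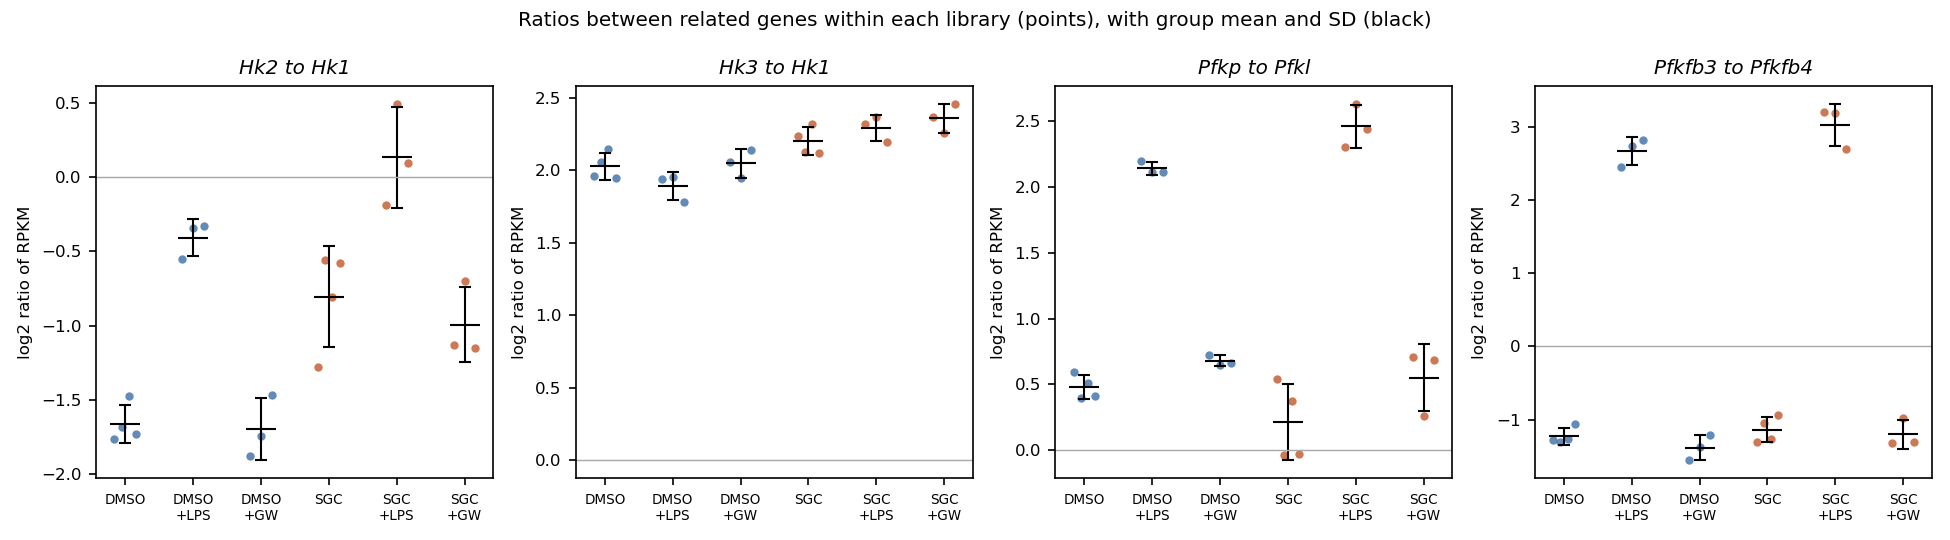
Log2 ratio of RPKM between related genes (vertical axis) in each library of the 6 groups, with the group mean and 1 SD in black. Pfkfb3 to Pfkfb4 and Pfkp to Pfkl are higher in every LPS library, and Hk2 to Hk1 is higher in SGC0946 than in DMSO in each condition.

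Whether the inhibitor changed the response to LPS was tested directly. No member passed, and over all 12013 genes 1 was called (0.00832%) by edgeR. At an unadjusted p under 0.05, 4 members differed (Pfkl, Slc2a1, Hk2 and Pfkp), against 835 of all genes. Slc2a1, Hk2 and Pfkl had smaller values in SGC0946 and Pfkp a larger one, at 0.25 ± 0.12. DESeq2 called 37 genes and the replicate block 6, with no member among either.

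GW3965 changed little among the 10 genes. In DMSO edgeR called 0 of the 10 (2.55% of all genes, 1.35% higher and 1.2% lower), with 1 at an unadjusted p under 0.05 against 1976 of the 12013 genes, and DESeq2 called 0 as well. In SGC0946 Pfkl fell (2.42% called, 1.32% higher and 1.11% lower), and 3 of the 10 had an unadjusted p under 0.05, against 1696 of all genes. The ranges did not overlap for 2 genes in DMSO, Pfkl and Pkm (19.8% of all genes), and for 2 in SGC0946, Pfkl and Pfkfb4 (10.9%). Pfkl stood at 52.1, 58.1 and 58 CPM in SGC0946+GW3965, below each unstimulated SGC0946 library, a log2 change of -0.32 ± 0.07 (edgeR adjusted p = 0.0107). In DMSO it stood at 54.8, 55.5 and 59.6 CPM with GW3965, a change of -0.17 ± 0.07 (edgeR adjusted p = 0.207). The call in SGC0946 was lost when only the compared groups were fitted (edgeR adjusted p = 0.202), without replicates 2 and 4 (0.286) and without SGC0946+GW3965 replicate 1 (0.101). The difference of the GW3965 responses passed for no member and no gene with edgeR (0 members and 291 genes at an unadjusted p under 0.05), and DESeq2 and limma-voom also called 0.

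Around these genes, 70 genes of the same pathways were listed, 56 of which were tested. With LPS 18 were called higher and 18 lower in DMSO, and 17 and 19 in SGC0946, with medians of 0.04 and 0.03. The share called was 64.3% in each arm, beside 74.1% of all genes in DMSO and 74.6% in SGC0946. With library totals alone 6 were higher and 41 lower in DMSO, and 6 and 44 in SGC0946. Of the other glucose transporters 4 of 10 were tested, and 1 rose and 3 fell in each arm. Slc2a6 (GLUT6), a lysosomal transporter of macrophages, stood at 36.3 ± 1.51 CPM in DMSO (SD, n = 4) and 845 ± 16.6 after LPS (n = 3), a log2 change of 4.54 ± 0.14 (edgeR adjusted p = 1.6e-17). In SGC0946 its change was 4.84 ± 0.15 (edgeR adjusted p = 7.61e-18). It remained higher with library totals, at 3.81 and 4.10.

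Of 15 tested genes of the other glycolytic enzymes 4 rose and 3 fell in DMSO, and 0 rose and 3 fell in SGC0946, where 12 did not pass. These were 46.7% and 20.0% of the list, beside 74.1% and 74.6% of all genes called, and the counts depend on scaling. The medians of the list were 0.08 and 0.04. Tested directly, the difference of the LPS responses passed for 0 of these 15 genes and 0 of the 56, so the unlike counts show no change of response. Gpi1, between hexokinase and phosphofructokinase, differed by -0.05 ± 0.07 in DMSO (edgeR adjusted p = 0.517). Between phosphofructokinase and pyruvate kinase, Aldoa rose by 0.16 ± 0.05, Pgk1 by 0.53 ± 0.12 and Eno1 by 0.34 ± 0.07 in DMSO, while Tpi1 and Pgam1 did not pass (0.13 ± 0.07 and 0.12 ± 0.12). With library totals alone no gene of this list was higher, and 12 were lower in DMSO and 14 in SGC0946. Gapdh stood at 1.07 ± 0.145 CPM in DMSO, which is low for so abundant an mRNA. Gapdh, Pgk1 and Pgam1 have many near-identical pseudogene copies, so their counts are uncertain, and Ldha and Pkm have such copies as well.

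The lists on either side of glycolysis held risers and fallers. Hif1a, the oxygen-regulated subunit of HIF-1, rose by 1.41 ± 0.05 in DMSO (edgeR adjusted p = 8.27e-17) and by 1.31 ± 0.05 in SGC0946 (adjusted p = 3.37e-16), and by 0.68 and 0.57 with library totals. Of the 12 regulators tested, 5 rose and 5 fell in DMSO, and 5 and 4 in SGC0946 (83.3% and 75% called, beside 74.1% and 74.6% of all genes). Pdp1, a phosphatase that activates pyruvate dehydrogenase, fell by 1.73 ± 0.07 in both arms. Of the kinases that inactivate it, Pdk3 rose by 1.5 ± 0.09 in DMSO and 1.70 ± 0.09 in SGC0946 (edgeR adjusted p = 1.89e-12 and 2.46e-13). Pdk2 fell by 1.78 ± 0.17 and 1.89 ± 0.17 (edgeR adjusted p = 5.93e-09 and 1.62e-09), and Pdk1 fell by 0.33 ± 0.07 in each arm (0.000113 and 0.000125). Pdk1, Pdk2 and the DMSO value of Pdk3 were added after the values were seen. Among the 13 tested genes of lactate and pyruvate handling 4 rose and 4 fell in DMSO, and 6 and 5 in SGC0946 (61.5% and 84.6% called). Of the 8 genes of the pentose phosphate pathway 3 rose and 2 fell in DMSO, among them Rpe, which rose by 1.07 ± 0.06. In SGC0946 4 rose and 2 fell (62.5% called in DMSO and 75% in SGC0946). Pfkfb2, another member of the PFKFB family, fell by 1.83 ± 0.10 in DMSO (edgeR adjusted p = 5.45e-13).

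**Figure D5:**
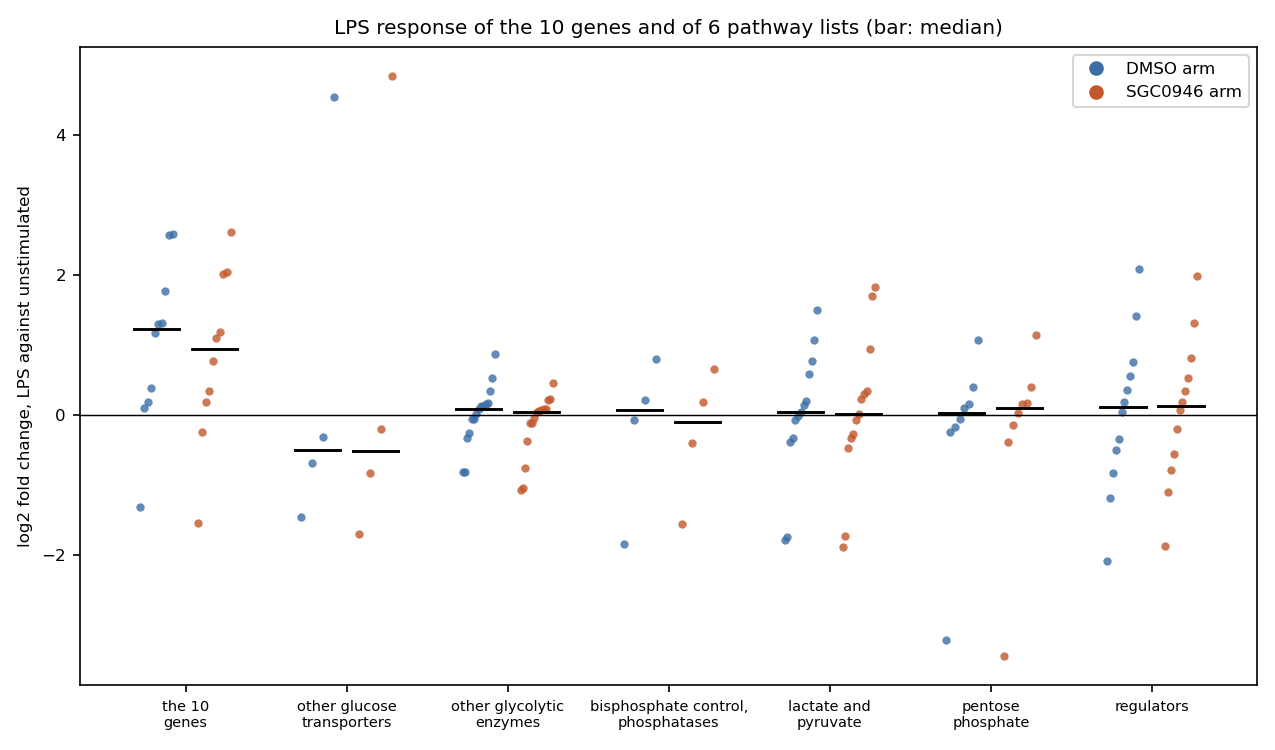
Log2 fold change with LPS (vertical axis, TMM scaling) of the 10 genes and of the tested genes of 6 pathway lists, 1 point per gene, in the DMSO arm (blue) and the SGC0946 arm (orange), with the median as a black bar. The medians of the 10 genes, 1.23 and 0.94, lie above those of the lists. The genes and the lists were chosen with earlier results of these data known. They are compared here without a test.

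With SGC0946 5 of the 56 genes of these lists rose and 2 fell in unstimulated cells, which is 12.5% beside 8.72% of all genes. Eno2 rose by 0.58 ± 0.13 (edgeR adjusted p = 0.00864), Arrdc4 by 0.62 ± 0.14 (0.00872), Epas1 by 0.61 ± 0.15 (0.0106), Ldhb by 0.88 ± 0.21 (0.0115) and Pdk1 by 0.24 ± 0.06 (0.0136). With LPS 3 rose and 2 fell (8.93% beside 7.13% of all genes). Epas1, the HIF-2 alpha gene, rose by 0.91 ± 0.20 (edgeR adjusted p = 0.009), Arrdc4 by 0.53 ± 0.15 (0.0328) and Pdk1 by 0.24 ± 0.07 (0.0455). The lactate transporter gene Slc16a1 fell by 0.56 ± 0.15 (edgeR adjusted p = 0.027) and Slc2a8 by 0.43 ± 0.13 (0.0432). With GW3965 Eno2 rose by 0.57 ± 0.15 (edgeR adjusted p = 0.0357) and no other passed (1.79% beside 3.64%). GW3965 itself raised 2 of the 56 and lowered 1 in DMSO (5.36% beside 2.55% of all genes). In SGC0946 2 rose and 2 fell (7.14% beside 2.42%). Adpgk, an ADP-dependent glucokinase, rose by 0.87 ± 0.10 in DMSO (edgeR adjusted p = 7.95e-06) and by 0.69 ± 0.10 in SGC0946 (adjusted p = 0.000176). In DMSO Epas1 rose by 0.62 ± 0.16 (edgeR adjusted p = 0.0364) and Pgls fell by 0.30 ± 0.08 (0.0490). In SGC0946 Pdp2 rose by 0.44 ± 0.10 (edgeR adjusted p = 0.0258), and Slc2a9 fell by 0.35 ± 0.07 (0.0125) and Egln3 by 0.76 ± 0.20 (0.0489).

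For each gene, the tested genes of most similar pattern were found by the root mean square difference of centred log2 CPM over the 20 libraries, as a description without a test. Closest to Hk1 were Glrx (0.10) and Parp3 (0.11), and closest to Hk2 were Zfp263 (0.17) and Ptger4 (0.18). Pfkfb3 was followed by Zbtb5 and Itga4 (0.12 each), and Pfkfb4 by Oma1 and Ubn1 (0.11 each). Slc2a1 was closest to St6galnac4 and Igsf8 (0.15 each), Hk3 to Alcam (0.07) and Eme1 (0.08), and Pfkp to Pik3ap1 (0.09) and Slc12a4 (0.11). Pfkl was closest to Lamtor1 (0.10) and Pde7a (0.11), Pkm to Lgals3 and Usp4 (0.07 and 0.08), and Ldha to Clic1 and Pdcd6ip (0.07 each). Among the 10 themselves the closest pair was Pkm and Ldha (0.13), followed by Hk1 and Hk3 (0.18). Pfkfb4 was the farthest from the rest, with 0.67 to its nearest, Pfkl.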

How the data were processed

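Poly(A) RNA was sequenced in 20 libraries (single reads of 50 bp, per the labels). Per the submitters' processing notes, reads were processed with STAR 2.5.2b and SAMtools 1.3.1 on mm10. For the counting step, program, annotation and strand setting were not given in the sources used here. Submitted by the authors were 1 table of read counts and 1 table of RPKM, each of 35745 RefSeq transcripts. For 10488 transcripts the ratio of count to deposited RPKM was the product of a transcript factor and a library factor, within 0.0008 (relative). These factors were not compared with transcript length or library total.

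RefSeq's table of genes on GRCm38.p6 gave symbols for 35440 transcripts. The other 305 held 1.17% of counts and were left out. Keeping the transcript with the highest total count for each of 24342 symbols (6035 had more than 1) retained 57.3% of counts. Gene positions are those of GRCm38 (mm10). Groups were compared with edgeR 4.0.16 in R 4.3.3 (quasi-likelihood F test, TMM scaling, filterByExpr with a count minimum of 10, 1 mean per group, all 20 libraries) on 12013 genes, with Benjamini-Hochberg adjustment over all genes tested and a call under 0.05. The common biological coefficient of variation was 8.87%, and TMM factors were 0.686 to 0.716 in LPS libraries and 1.14 to 1.19 in the others. Ratios of deposited RPKM within a library were tested with two-sided exact permutation tests. The script was tested on simulated data.

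The deposited sample sheet gives the same mouse number as the replicate number in 20 of 20 libraries, so numbers pair the libraries. The edgeR fit with 1 mean per group does not use this pairing, whereas the replicate block does. With the block 758 genes were called higher and 723 lower for SGC0946 in unstimulated cells, against 546 and 502 without it. Deviations of 46 same-numbered pairs correlated at 0.061 to 0.501 (median 0.20). Alternatives were RLE scaling, library totals, 2 filters, DESeq2 1.42.0, limma-voom (limma 3.58.1), the compared groups alone, the replicate block, summed transcripts, another transcript choice and libraries left out. Leaving out the DMSO libraries titled reanalyzed, and rescaling the pathway lists, were added after seeing the data. All 10 genes are named. Pathway genes are named when among the 5 smallest adjusted p values of a comparison, or when their step joins listed genes. The 10 genes and the lists were chosen with earlier results of these data known.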

Additional observations from a re-analysis of the deposited data

Results flagged for a closer look

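In unstimulated DMSO cells the RPKM ratio of Pfkfb3 to Pfkfb4 was 0.480 in replicate 4, apart from 0.404 to 0.414 in the other 3 libraries, with a gap of 0.867 of the group's range. It is the unstimulated DMSO library whose title lacks the word reanalyzed, and the part of this in the value was not tested. Of 28 groups of 4 libraries examined in this way this was the 1 that stood out, and chance gives about 5% of groups.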

How the results depend on the processing

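Of the alternatives, library totals alone mattered most for LPS: Pfkl changed by -0.63 and Pkm by -0.54 in DMSO and Pkm by -0.55 in SGC0946, and Ldha by -0.34 and -0.40, each against a positive value with TMM. Of all genes called with LPS, 18.6% in DMSO and 18.5% in SGC0946 were then higher, against 47.8% and 47.9%. The share higher was 62.6% against 52.1% for SGC0946 in unstimulated cells, 36.1% against 52.9% for GW3965 in DMSO and 39.2% against 54.3% in SGC0946. Otherwise 103 values of the 10 genes changed sign with no call in either setting.

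With LPS, SGC0946 changed 2 of the 10 genes (Hk1 and Slc2a1) in place of 1 with RLE scaling, no filter, DESeq2, limma-voom, the compared groups alone and the replicate block. Members called in unstimulated cells went from 2 to 0 without replicates 2 and 4, and also without the DMSO libraries titled reanalyzed, which leaves 1 control library whose spread is taken from the other groups. Those called with GW3965 in SGC0946 went from 1 to 0 with the compared groups alone and without replicates 2 and 4. Pkm passed with LPS in DMSO with the compared groups alone (edgeR adjusted p = 0.0027) and Pfkl did so too (0.0491).

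Counts over all genes moved as follows. The compared groups alone gave 164 for SGC0946 with GW3965, and 888 and 88 for GW3965 in DMSO and in SGC0946. The replicate block gave 703 for SGC0946 with GW3965, 531 for GW3965 in DMSO and 6 for the difference of LPS responses, and it changed no call of the 10 genes other than Slc2a1 and Pkm. DESeq2 gave 520 for GW3965 in DMSO and 37 for the difference of LPS responses, which was 11 with no filter. Without replicates 2 and 4 SGC0946 changed 235, 529 and 250 genes in unstimulated, LPS and GW3965 cells, and GW3965 changed 178 in SGC0946. With that 1 control library SGC0946 changed 167 genes in unstimulated cells.

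Leaving out 1 library at a time, SGC0946 changed 578 to 1099 genes in unstimulated cells, 432 to 796 with LPS and 232 to 454 with GW3965. GW3965 changed 122 to 343 genes in DMSO and 134 to 485 in SGC0946, and the difference of LPS responses was called in 1 to 11. Members called for SGC0946 were 2 to 3 in unstimulated cells (Pfkl passed without SGC0946 replicate 1, adjusted p = 0.016) and 1 to 2 with LPS (Slc2a1 passed without SGC0946+LPS replicate 2, 0.0395), and 0 to 1 for GW3965 in SGC0946. With a pseudocount of 1 RPKM, the log2 difference of the Pfkfb3 to Pfkfb4 ratio with LPS was 3.46 in DMSO and 3.65 in SGC0946. Depth limits Slc2a1 and Pfkfb4 most, the genes with the fewest counts. Cause was not tested for any of these changes.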
